A study of Mus musculus with 36 samples.

Results

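The genes described are the Hippo pathway coactivators *Yap1* and *Wwtr1* (encoding Taz), the Tead factors *Tead1*, *Tead2*, *Tead3* and *Tead4*, the kinases *Lats1* and *Lats2*, and the angiomotin-like genes *Amotl1* and *Amotl2*. They were chosen by symbol through the Ensembl identifiers of the normalized count tables and not by a cut-off on their values. Earlier results of these data were known when they were chosen. They make up 10 of the 30125 genes listed in the 3 tables, and all 10 were listed in every table and had a mean of at least 10 normalized counts there. A normalized count is the number of reads on a gene divided by a size factor of its library.

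In the Hippo pathway, the kinases Mst1 and Mst2 activate Lats1 and Lats2, which phosphorylate Yap and Taz and keep them out of the nucleus. Yap and Taz that reach the nucleus bind DNA through Tead factors and raise the transcription of genes such as *Ccn1*, *Ccn2* and *Axl*. Angiomotins hold Yap at cell junctions and promote the action of the Lats kinases, and *Lats2* and *Amotl2* are themselves known as Yap targets in other cells. In the embryonic kidney, Yap in nephron progenitors is required for nephron morphogenesis.

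RNA-seq was performed on 36 libraries of primary mouse nephron progenitor cells (NPCs) from embryonic kidneys, grown with CHIR, an inhibitor of Gsk3 that stabilizes β-catenin. Wild-type NPCs received no CHIR, low CHIR (1.25 µM) or high CHIR (5 µM), with 3 libraries each. β-Catenin was removed in 2 ways in low and in high CHIR, with 2 libraries in each of 8 groups. Cells homozygous for a conditional *Ctnnb1* allele (genotype B-catenin_c_c) received Cre mRNA (Cre-pos) or no Cre (Cre-neg), and cells of the genotype Cas9-eGFP received sgRNAs against *Ctnnb1* or against GFP. In a further set, Cas9-eGFP cells received sgRNAs against the Tcf/Lef genes *Tcf7*, *Tcf7l1*, *Tcf7l2* and *Lef1* (QKO) or against GFP, with 3 libraries per group except for QKO in low CHIR, which had 2. All edited cells and their controls were transfected together with mCherry mRNA and sorted for mCherry, so they are mixed populations of edited and possibly unedited cells and not clones. The labels do not say that replicates came from separate cultures or animals, so p-values measure only the spread between these libraries.

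Libraries held 13651129 to 76071568 reads on genes in the wild-type set, 14537850 to 27838106 in the β-catenin set and 13089780 to 20152719 in the QKO set. *Ctnnb1* counts checked the labels in part. They were 1652 and 1040 normalized counts with *Ctnnb1* sgRNAs in low CHIR against 2521 and 3397 with GFP sgRNA, and 1630 and 1270 against 2632 and 2701 in high CHIR. They overlapped between Cre-pos and Cre-neg in high CHIR, where reads outside the part that Cre removes are counted too and check nothing, while *Lef1* in high CHIR was 102 and 161 in Cre-pos against 1090 and 1568 in Cre-neg. In QKO, sgRNA-directed cuts need not lower transcript counts, and *Tcf7* in high CHIR was 110 to 180 in QKO against 268 to 535 with GFP sgRNA. *Tcf7* also fell on β-catenin removal in high CHIR (log2 −1.47), so its fall in QKO does not check cutting. Log2 fold changes of *Tcf7l1*, *Tcf7l2* and *Lef1* in QKO in high CHIR were 0.15, −0.35 and −2.12, none with an adjusted p under 0.05 by limma. *Lef1* still rose from low to high CHIR in QKO (log2 3.12, against 5.37 with GFP sgRNA). Of the nephron progenitor markers *Six2* fell from 2716 to 3072 normalized counts in low CHIR to 60.5 to 79.6 in high CHIR in wild-type NPCs. One library stood apart for β-catenin targets, since *Axin2* was 3638 in replicate 3 of wild-type high CHIR against 538 and 433 in the other two.

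Promoter sequences are shown for 1 window each of *Wwtr1*, *Tead3* and *Lats2*, whose RNA moved with CHIR or with β-catenin removal. These windows lay wholly or mostly outside annotated exons. The window of *Amotl2*, which also moved with CHIR, held 114 exon-free bases of 250 and is not printed. RefSeq promoter windows on GRCm38.p6 were found for 8 of the 10 members, in 12 windows, but not for *Tead1* and *Tead4*. The 250 bases before each start were searched on both strands for the Tead motif GGAATG and for the Tcf/Lef motifs CTTTGAA, as well as CTTTGAT, as well as CTTTGTA, as well as CTTTGTT, whose matches do not overlap each other in the windows printed here. Letters of a match stand in capitals, and exonic bases were left off.
*Wwtr1*, chr3:57575911-57576160, minus strand: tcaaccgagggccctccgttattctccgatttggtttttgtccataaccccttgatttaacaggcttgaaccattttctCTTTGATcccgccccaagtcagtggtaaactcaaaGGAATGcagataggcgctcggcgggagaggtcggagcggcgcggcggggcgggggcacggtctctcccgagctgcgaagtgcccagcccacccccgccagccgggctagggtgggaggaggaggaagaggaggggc
*Tead3*, chr17:28350818-28351055, minus strand: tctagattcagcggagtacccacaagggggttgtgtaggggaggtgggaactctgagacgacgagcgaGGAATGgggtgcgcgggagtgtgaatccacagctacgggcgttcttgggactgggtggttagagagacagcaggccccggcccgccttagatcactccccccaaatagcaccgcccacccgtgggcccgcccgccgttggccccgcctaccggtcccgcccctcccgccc
*Lats2*, chr14:57746124-57746373, minus strand: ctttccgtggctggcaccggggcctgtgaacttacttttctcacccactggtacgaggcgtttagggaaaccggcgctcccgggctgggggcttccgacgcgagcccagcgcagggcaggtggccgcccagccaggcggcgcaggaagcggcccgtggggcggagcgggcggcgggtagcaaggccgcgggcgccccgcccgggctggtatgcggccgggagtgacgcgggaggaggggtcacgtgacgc

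The *Wwtr1* window held a Tcf/Lef match that began 171 bases before the start and a Tead match that began 136 bases before it. The printed *Tead3* window held a Tead match that began 182 bases before the start, and neither *Lats2* window held a match to either motif. Among the windows not printed, a second *Tead3* window held 2 Tead matches, the second *Wwtr1* window held the same letters as the first, *Yap1* held 1 Tead match, *Amotl2* held 1 Tead and 1 Tcf/Lef match, and *Tead2* held 1 Tcf/Lef match. In all, 6 of the 12 member windows held a Tead match and 4 held a Tcf/Lef match, against 12.64% and 14.84% of all 32851 windows. These windows belong to 4 and 3 of the 8 members. Windows of 1 gene can overlap, and the *Wwtr1* matches were counted in both of its windows. Whether the members differ from other genes in these matches was not tested. These matches are letters in a window, and no binding was measured here.

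Compared per kilobase of exon, which allows levels to be set between genes, *Tead2* was the most abundant member, with a median of 390 normalized counts per kb over the 36 libraries (198 to 1007). *Amotl1* followed with 246 (163 to 313), then *Yap1* with 117 (88.0 to 163), *Amotl2* with 92.3 (48.2 to 268) and *Lats1* with 78.0 (51.9 to 135). *Wwtr1* had a median of 58.7 (25.2 to 101), *Tead1* of 47.2 (24.6 to 72.0) and *Lats2* of 31.0 (16.8 to 77.6). *Tead3* and *Tead4* were the least abundant, at 9.78 (3.96 to 30.9) and 8.95 (2.49 to 21.7). Ranges of neighbours in this order overlapped, and the tables were normalized separately, so the ranges span 3 scales. Within each library, *Tead2* held 74.96% to 93.5% of the summed per-kb level of the 4 Tead genes.

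High CHIR was compared with low CHIR in wild-type NPCs to ask which members respond to stronger Wnt/β-catenin signaling. *Tead3* fell, and it was the single member of 10 that was called at an adjusted p under 0.05, where 10.6% of all 17411 genes tested were called. *Tead3* encodes 1 of the 4 Tead factors, which bind DNA for Yap and Taz. It measured 106, 106 and 144 normalized counts in low CHIR and 45.9, 47.5 and 43.9 in high CHIR, so every high CHIR library was lower than every low CHIR library. The log2 fold change was −1.34 ± 0.23 (SE, adjusted p = 0.00432), a 2.54-fold lower level. The fall was called in each of the 6 fits that left out 1 library and in all 7 other fits.

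*Lats2*, which encodes a kinase that phosphorylates Yap and Taz, measured 219, 216 and 352 in low CHIR and 146, 176 and 117 in high CHIR. The groups did not overlap, and the log2 fold change of −0.82 ± 0.23 narrowly missed the threshold (adjusted p = 0.0515). It passed with DESeq2 (adjusted p = 0.0117), with TMM rescaling and when replicate 2 of high CHIR was left out (adjusted p = 0.0413), and its adjusted p over the leave-one-out fits reached 0.199. *Tead4*, the lowest member, measured 21.0, 29.4 and 56.3 in low and 8.96, 15.4 and 18.7 in high CHIR. Its log2 fold change was −1.19 ± 0.45 (adjusted p = 0.131), again without overlap. *Tead1* lay apart in the other direction, with 733, 495 and 654 in low and 840, 751 and 738 in high CHIR (log2 0.32 ± 0.16, adjusted p = 0.254). The groups did not overlap for these 4 members (*Tead1*, *Tead3*, *Tead4* and *Lats2*), as for 30.8% of all genes.

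The other members showed smaller differences in wild-type NPCs. *Yap1* measured 1204, 1081 and 1089 in low CHIR and 1196, 1288 and 1257 in high CHIR (log2 0.15 ± 0.12, 95% interval −0.12 to 0.42). *Wwtr1* differed by −0.06 ± 0.24 (−0.60 to 0.48), and its replicate 3 of high CHIR, at 181, was below the other two, at 327 and 342. *Tead2* differed by 0.02 ± 0.16, *Lats1* by 0.15 ± 0.15 and *Amotl1* by −0.14 ± 0.14 on the log2 scale. *Amotl2* measured 1184, 802 and 1569 in low and 822, 860 and 408 in high CHIR (log2 −0.79 ± 0.32, adjusted p = 0.155), and the groups overlapped.

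**Figure D1:**
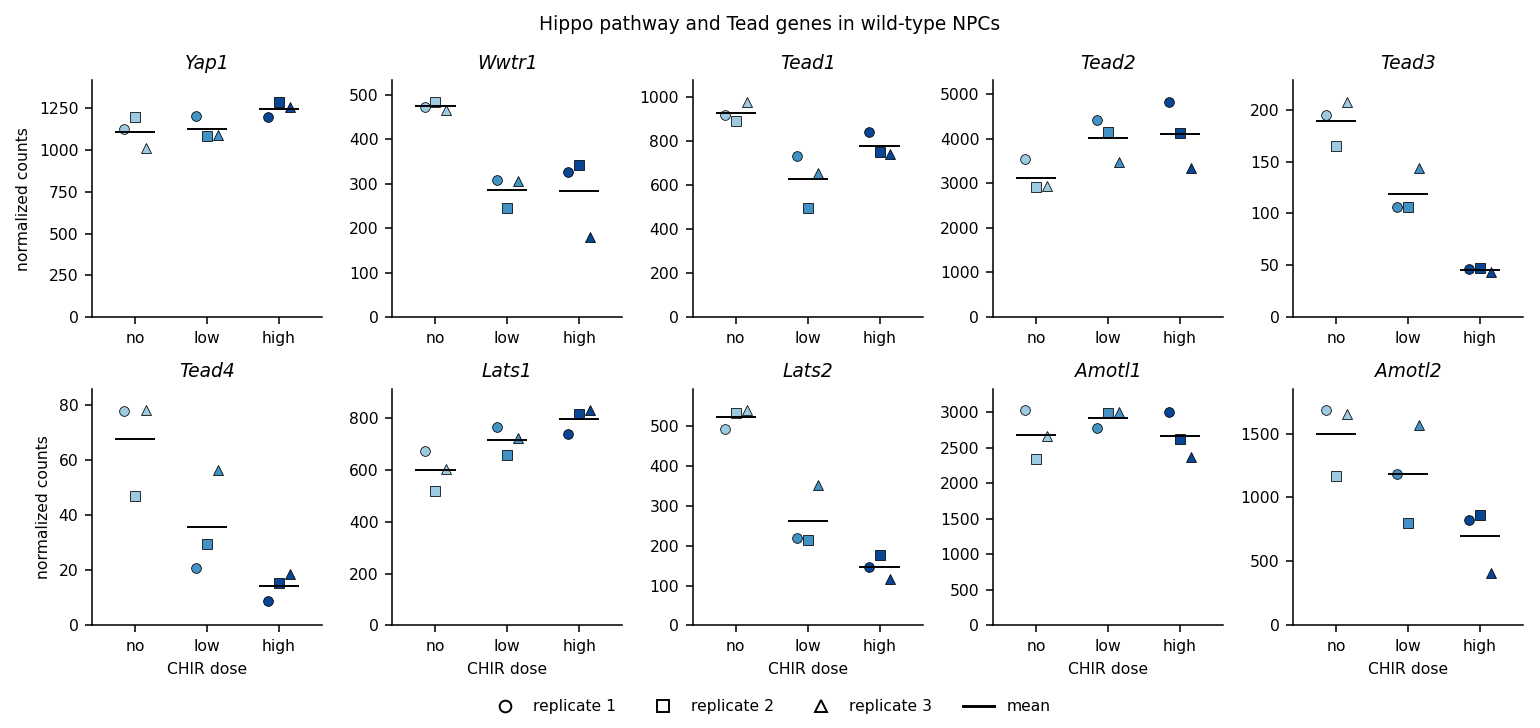
Normalized counts (y axis, from 0) of the 10 genes in each wild-type library by CHIR dose (x axis); symbols mark the replicate number and bars the mean. *Tead3* and *Lats2* step down from no to low to high CHIR without overlap, whereas *Yap1* and *Amotl1* lie in a narrow band.

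Cells without CHIR were compared with cells in low CHIR to ask which members respond at the lower end of the dose range. *Lats2* rose without CHIR, and it was the single member called, where 5.04% of all genes were called. Its levels were 493, 534 and 541 without CHIR against 216 to 352 in low CHIR, which gave a log2 difference of 1.03 ± 0.23 (adjusted p = 0.0367). This call held in all 7 other fits of the full set but in 1 of the 6 leave-one-out fits (adjusted p of 0.0337 to 0.158), that without replicate 3 of low CHIR. The levels of *Wwtr1* were 472, 484 and 466 without CHIR against 307, 245 and 305 in low CHIR (log2 0.74 ± 0.24, adjusted p = 0.109), those of *Tead1* 918, 890 and 977 against 733, 495 and 654 (0.58 ± 0.16, adjusted p = 0.0685), and those of *Tead3* 195, 165 and 208 against 106 to 144 (0.68 ± 0.23, adjusted p = 0.117). These 4 members did not overlap between the groups in the higher direction, where 15.9% of all genes did not. DESeq2 called all 4, and a fit of the 2 groups alone called *Wwtr1*, *Tead1* and *Lats2*. *Tead4* differed by 0.99 ± 0.45, *Amotl2* by 0.37 ± 0.32 and *Tead2* by −0.36 ± 0.16 on the log2 scale, and *Lats1*, *Amotl1* and *Yap1* by −0.26 to −0.02, with none of the 6 called.

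Across the whole dose range, high against no CHIR, 5 members fell and none rose, where 12.6% of all genes fell. For *Tead3* the log2 fold change was −2.02 ± 0.23 (adjusted p = 0.000215), for *Lats2* −1.85 ± 0.23 (adjusted p = 0.000418), and for *Tead4* −2.18 ± 0.45 (adjusted p = 0.00654). *Tead4* measured 78.0, 46.8 and 78.2 without CHIR. *Amotl2*, with 1683, 1168 and 1649 without CHIR, fell by 1.16 ± 0.32 (adjusted p = 0.0238), and *Wwtr1* fell by 0.80 ± 0.24 (adjusted p = 0.0360). The calls of *Tead3*, *Lats2* and *Tead4* held without any 1 library, whereas *Amotl2* was called in 4 of 6 such fits (not without replicate 1 or 3 of no CHIR) and *Wwtr1* in 2 (those without replicate 1 or 2 of high CHIR). *Lats1* was 672, 518 and 604 without CHIR and 737 to 831 in high CHIR (log2 0.42 ± 0.15, adjusted p = 0.0631), opposite to *Lats2*. The 3 doses were ordered downward without overlap for *Tead3* and *Lats2*, as for 3.49% of all genes. These 3 wild-type comparisons share libraries, so their directions are not independent of each other.

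Shares within paralog groups moved accordingly. *Lats2* made up 43.5% to 51.9% of the per-kb level of the 2 Lats genes without CHIR, 23.1% to 33.8% in low and 12.8% to 18.4% in high CHIR. *Tead3* made up 3.39% to 4.20%, 1.59% to 2.64% and 0.634% to 0.854% of the Tead level at these doses, and *Tead2* 83.1% to 86.2%, 89.5% to 93.5% and 91.4% to 93.4%. *Wwtr1* made up 44.0% to 47.2% of the summed level of *Yap1* and *Wwtr1* without CHIR and 30.5% to 35.2% in low CHIR. These shares describe the per-kb levels and were not tested.

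Levels of nephron progenitor and ureteric markers moved in the same libraries, whereas those of stromal markers overlapped between the doses. The summed level of the 10 nephron progenitor markers was 32992 to 37778 normalized counts without CHIR, 19089 to 26542 in low and 4045 to 7944 in high CHIR. That of the 8 stromal markers was 7342 to 29126, 11230 to 16868 and 3871 to 11484, and that of the 6 listed ureteric markers was 657 to 1300, 619 to 1043 and 2090 to 3546. Their part in the changes of *Lats2*, *Tead3* and the other members was not tested. In these bulk samples, fewer cells of a type and less RNA per cell cannot be told apart.

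The same dose comparison was made in the controls of the β-catenin set, averaged over Cre-neg and GFP sgRNA cells. *Tead3* and *Lats2* fell and no member rose, 2 of 10 members called where 16.5% of 16780 genes were called, and these libraries are separate from the wild-type set. *Tead3* was 127 and 85.2 in low against 31.3 and 33.2 in high CHIR in Cre-neg cells. With GFP sgRNA, it was 79.5 and 94.2 against 38.2 and 54.6. The averaged log2 fold change was −1.28 ± 0.22 (adjusted p = 0.00133), it was called in all 8 fits without 1 library, and the values within each background were −1.66 and −0.91. *Lats2* was 232 and 388 against 133 and 135 in Cre-neg cells, and 214 and 212 against 191 and 128 with GFP sgRNA. Its averaged log2 fold change was −0.80 ± 0.24 (adjusted p = 0.0368), and it was called in 2 of the 8 fits without 1 library (replicate 1 of Cre-neg in low CHIR or of GFP sgRNA in high CHIR). Neither gene overlapped between the doses in either background, as for 14.5% of all genes in the lower direction.

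*Tead2* went the other way in these controls. It was 2000 and 1404 in low against 2118 and 2098 in high CHIR in Cre-neg cells, and 1645 and 1332 against 1994 and 2318 with GFP sgRNA. The log2 fold change was 0.43 ± 0.15 (adjusted p = 0.0584), and both backgrounds were without overlap, as for 12.6% of all genes. DESeq2 called *Tead2* (adjusted p = 0.0417), as did the limma fit without replicate 1 of Cre-neg in low CHIR (adjusted p = 0.0216), whereas over the other leave-one-out fits its adjusted p reached 0.192. *Wwtr1*, *Tead1*, *Tead4*, *Lats1*, *Yap1*, *Amotl1* and *Amotl2* were not called, with log2 fold changes between −0.47 and 0.28.

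In the GFP sgRNA controls of the QKO set, 0 members were called by limma, where 15.6% of 15878 genes were called, although 2 had an unadjusted p under 0.05. *Lats2* was 434, 458 and 215 in low and 252, 205 and 123 in high CHIR (log2 −0.91 ± 0.31, adjusted p = 0.0689), and *Tead3* was 131, 99.7 and 40.6 against 51.9, 32.4 and 26.6 (log2 −1.17 ± 0.43, adjusted p = 0.0945). Replicate 3 was the lowest at both doses for both genes, and each of the 3 same-numbered pairs fell. With the replicate number as a block, *Lats2* was called (adjusted p = 0.00944) and *Tead3* was not (adjusted p = 0.0727). DESeq2 called both, edgeR called neither, and without replicate 3 of low CHIR *Lats2*, *Tead3* and *Amotl2* were called. Thus *Tead3* had log2 fold changes of −1.34, −1.28 and −1.17 and *Lats2* of −0.82, −0.80 and −0.91 in the 3 sets. According to the study's methods, the knockout period was longer in the QKO set than in the β-catenin set, so the sets differ in culture time.

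**Figure D2:**
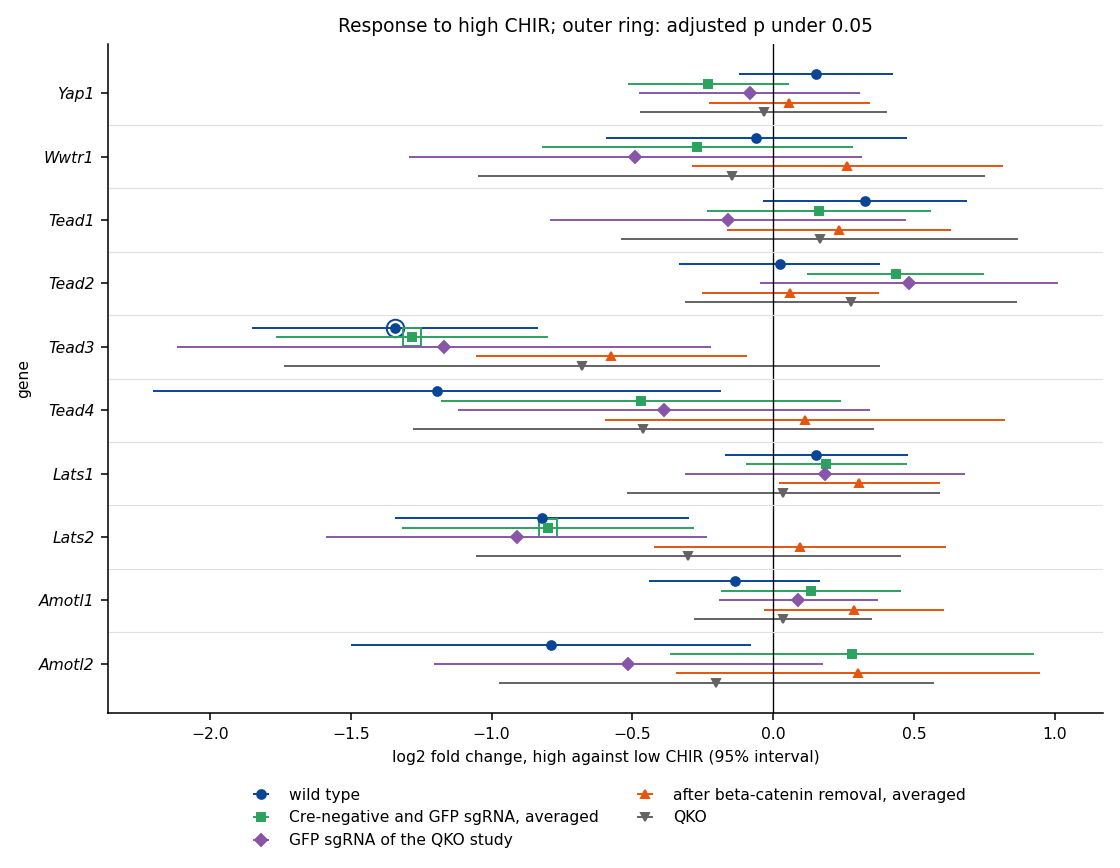
Log2 fold change, high against low CHIR (x axis), with its 95% interval for the 10 genes (y axis) in 5 settings given by color and symbol; an outer ring marks an adjusted p under 0.05. The intervals of *Tead3* and *Lats2* lie below 0 in the 3 settings with β-catenin and Tcf/Lef factors intact. After removal that of *Tead3* lies below 0 and that of *Lats2* spans 0, and in QKO both span 0. No member was called by limma for a different response after removal or in QKO.

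Removal of β-catenin in low CHIR was compared with its controls to ask whether the members depend on β-catenin during self-renewal. No member was called by limma (0 of 10, with 0 at an unadjusted p under 0.05, where 0.620% of all genes were called), and edgeR and DESeq2 called none. The averaged log2 fold changes ran from −0.27 ± 0.13 for *Yap1* to 0.28 ± 0.33 for *Tead4*. *Lats1* measured 388 and 379 in Cre-pos against 498 and 486 in Cre-neg cells, and 446 and 411 with *Ctnnb1* sgRNAs against 478 and 482 with GFP sgRNA. It was lower without overlap by both methods, as 4.21% of all genes were, with a log2 fold change of −0.26 ± 0.13 (adjusted p = 0.555). The interval of *Lats2* reached from −0.67 to 0.37 and that of *Tead3* from −0.64 to 0.32.

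In high CHIR, removal of β-catenin raised *Lats2*, 1 of 10 members where 17.3% of all genes were called. *Lats2* was 232 and 454 in Cre-pos against 133 and 135 in Cre-neg cells, which did not overlap. With *Ctnnb1* sgRNAs it was 160 and 205 against 191 and 128 with GFP sgRNA, which overlapped. The averaged log2 fold change was 0.74 ± 0.24 (adjusted p = 0.0492), made up of 1.27 ± 0.34 for Cre (adjusted p = 0.0324, with 8.65% of all genes called) and 0.21 ± 0.34 for Cas9 (adjusted p = 0.787, with 5.09% called). The difference between the methods was 1.06 ± 0.48 (adjusted p = 1.00), with a 95% interval of 0.03 to 2.10 before adjustment. The averaged call was kept in 2 of the 8 fits without 1 library (replicate 1 of GFP sgRNA or of Cre-pos), with adjusted p-values of 0.0144 to 0.192, and was lost without a filter and in a fit of the compared libraries alone. This comparison uses the same high CHIR controls as the dose comparison above, so the fall and the rise of *Lats2* are not independent.

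**Figure D3:**
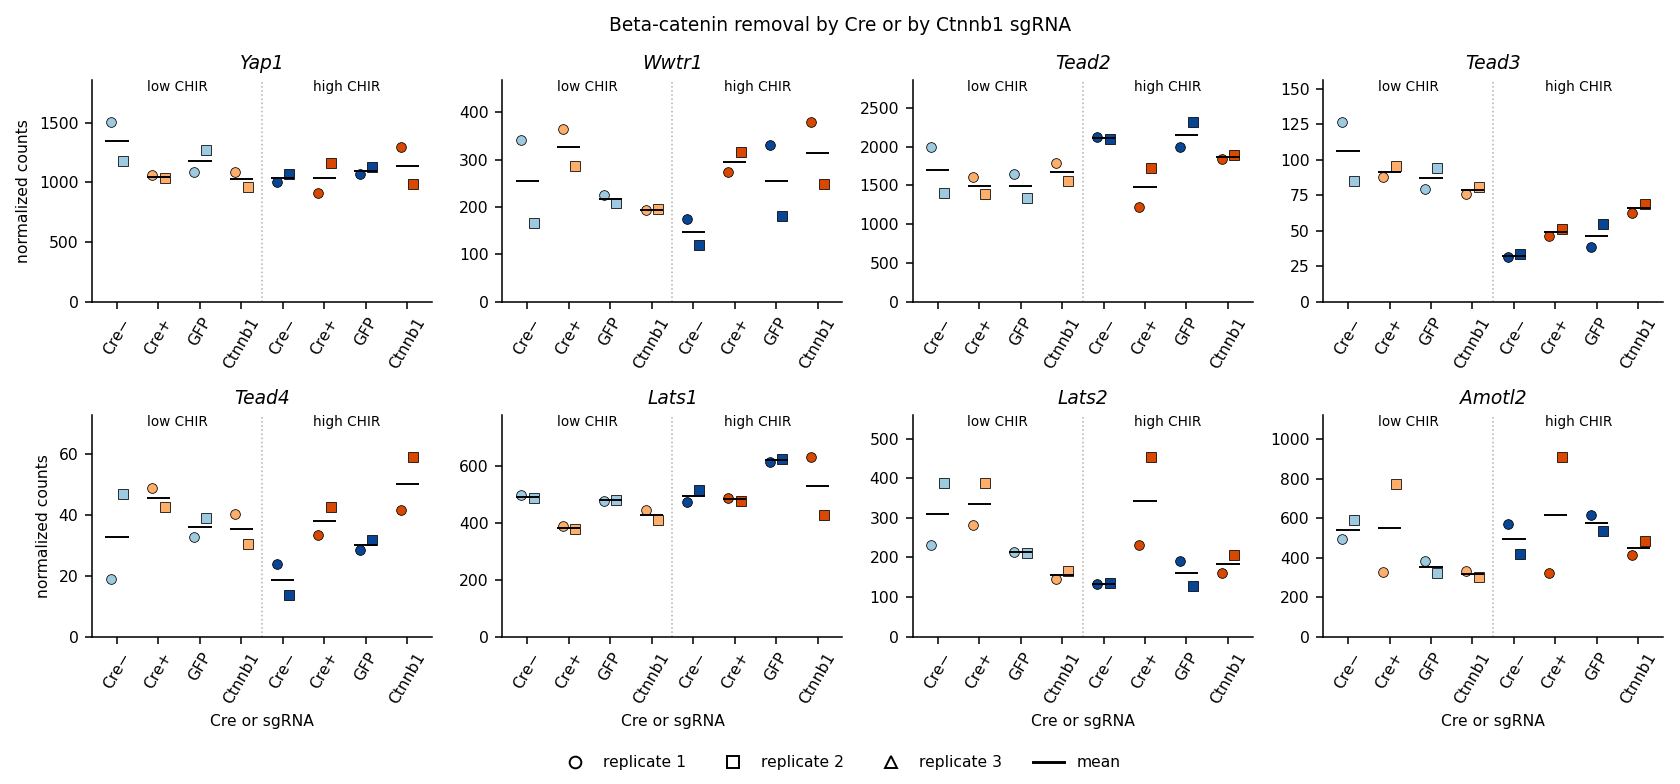
Normalized counts (y axis, from 0) of 8 of the genes in each library of the β-catenin set, by Cre or sgRNA (x axis), in low CHIR on the left and high CHIR on the right of each panel; blue marks controls, orange removal, symbols the replicate number and bars the mean. In high CHIR, *Tead3* lies higher with removal in both methods, and *Lats2* does so with Cre.

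Other members lay apart on removal in high CHIR without passing the threshold. *Tead3* was 46.4 and 51.0 in Cre-pos against 31.3 and 33.2 in Cre-neg cells, and 62.6 and 68.7 with *Ctnnb1* sgRNAs against 38.2 and 54.6 with GFP sgRNA (log2 0.55 ± 0.22, adjusted p = 0.115). *Tead4* was 33.3 and 42.5 against 23.9 and 13.5, and 41.4 and 59.0 against 28.5 and 31.6 (log2 0.86 ± 0.33, adjusted p = 0.0926). Both were higher without overlap in both methods, as 15.5% of all genes were. *Tead2* was lower without overlap, at 1226 and 1721 against 2118 and 2098, and 1841 and 1893 against 1994 and 2318 (log2 −0.37 ± 0.15, adjusted p = 0.101), as 14.6% of all genes were. *Wwtr1* was 274 and 317 in Cre-pos against 175 and 120 in Cre-neg cells, and 379 and 249 against 330 and 181 in the Cas9 pair (log2 0.67 ± 0.26, adjusted p = 0.0907). *Yap1*, *Tead1*, *Lats1*, *Amotl1* and *Amotl2* differed by −0.14 to 0.07 on the log2 scale.

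The test of whether the response to high CHIR differed after removal called 0 of 10 members by limma, where 2.44% of all genes were called, and edgeR and DESeq2 also called none. Its unadjusted p was under 0.05 for *Lats2* and *Tead3*. After removal the response of *Lats2* was 0.09 ± 0.24 on the log2 scale, a difference of 0.90 ± 0.34 from the controls (adjusted p = 0.263). That of *Tead3* was −0.58 ± 0.22, a difference of 0.71 ± 0.32 (adjusted p = 0.374). A fall of *Tead3* after removal is thus within its interval of −1.06 to −0.09.

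Marker levels moved in these libraries too. The summed level of the 6 endothelial markers was 496 to 1093 in Cre-neg and 546 to 557 in GFP sgRNA cells in low CHIR, and 71.6 to 89.3 and 86.1 to 176 in high CHIR. On removal in high CHIR it was 271 to 458 with Cre and 525 to 531 with Cas9, with the endothelial gene *Cdh5* under 10 in every library of the set. That of the 8 stromal markers was 5039 to 6147 in Cre-neg, 7262 to 12681 in Cre-pos, 4775 to 14289 in GFP sgRNA and 12266 to 19527 in *Ctnnb1* sgRNA cells in high CHIR, and 7 of its 8 genes, like 3 of the 6 endothelial and 8 of the 10 nephron progenitor markers, had a higher mean with removal in both methods. The part of these cells in the differences of *Lats2*, *Tead3*, *Tead4* and *Wwtr1* was not tested.

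QKO cells were compared with GFP sgRNA cells to ask whether the members depend on the Tcf/Lef factors. In low CHIR 0 members were called by limma, with 0 at an unadjusted p under 0.05, where 0.00630% of all genes were called, and edgeR and DESeq2 also called none. All 10 log2 fold changes of the limma fit without pairs were below 0. Their median was −0.27, against a median of 0.04 over all genes. Replicate 2 of GFP sgRNA in low CHIR has no QKO library of its number, and the same-numbered libraries did not all differ in 1 direction. *Tead2* per kb was 314 with GFP sgRNA and 198 in QKO in replicate 1, but 257 and 384 in replicate 3. For *Wwtr1* these values were 87.8 and 60.8 in replicate 1, but 35.5 and 57.7 in replicate 3. The differences of single members ran from −0.46 ± 0.32 for *Tead1* to −0.05 ± 0.27 for *Tead2*. *Yap1* was 974.7 and 989 in QKO and 1468, 1427 and 1021 with GFP sgRNA (log2 −0.39 ± 0.20, adjusted p = 0.904), without overlap in the lower direction, as 6.25% of all genes. The interval of *Lats2* was −1.15 to 0.36 and that of *Tead3* −1.42 to 0.70.

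In high CHIR, QKO again gave 0 called members by limma, edgeR and DESeq2 in fits without pairs, where limma called 2.56% of all genes. *Lats1* alone had an unadjusted p under 0.05, with 547, 699 and 490 in QKO against 837, 987 and 661 with GFP sgRNA (log2 −0.51 ± 0.23, adjusted p = 0.330). Each QKO library was below the GFP sgRNA library of its number, and with the replicate number as a block *Lats1* was called (adjusted p = 0.0413). *Lats2* was 223, 216 and 207 in QKO against 252, 205 and 123 (log2 0.21 ± 0.31, −0.46 to 0.89), and *Tead3* 33.9, 37.4 and 46.3 against 51.9, 32.4 and 26.6 (log2 0.13 ± 0.43). *Yap1* was 814, 1020 and 1062 against 1315, 1382 and 989 (log2 −0.34 ± 0.18, adjusted p = 0.432), and the other 6 members differed by −0.26 to 0.21. No member was called for a different response to CHIR in QKO (0 by limma, edgeR and DESeq2, 0 at an unadjusted p under 0.05, with 0.126% of all genes called by limma). The response of *Lats2* was −0.30 ± 0.35 in QKO, which differed from its controls by 0.61 ± 0.46 (adjusted p = 1.00).

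**Figure D4:**
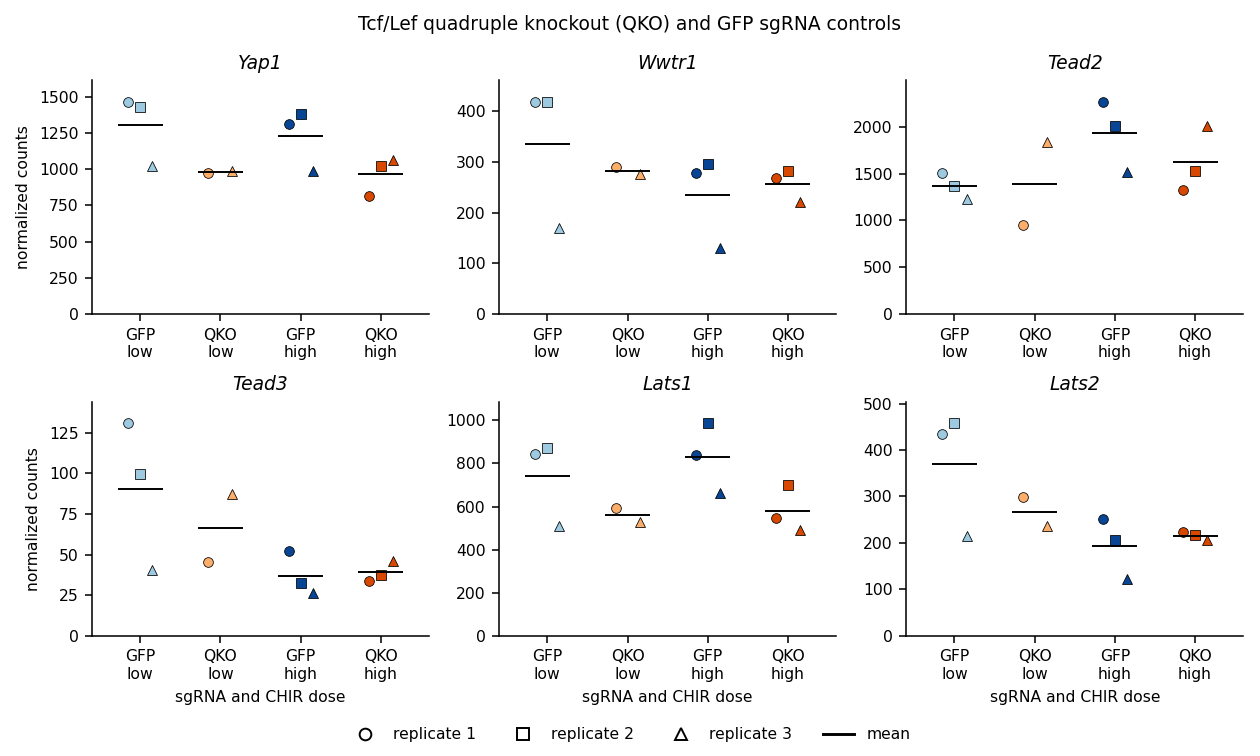
Normalized counts (y axis, from 0) of 6 of the genes in each library of the QKO set by sgRNA and CHIR dose (x axis); symbols mark the replicate number and bars the mean. Replicate 3 of the GFP sgRNA cells lies below replicates 1 and 2 at both doses for *Yap1*, *Wwtr1*, *Lats1* and *Lats2*.

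The stromal marker sum was 3258 to 8647 with GFP sgRNA and 2894 to 15430 in QKO in low CHIR, and 1054 to 4120 and 1226 to 8203 in high CHIR. Across the 3 sets *Lats2* made up 12.8% to 51.9% of the Lats level, and it was lower in each intact high CHIR group than in its low CHIR group by the group median. *Amotl2* made up 16.3% to 49.7% of the level of *Amotl1* and *Amotl2*, without such an order in the GFP sgRNA cells of the β-catenin set.

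**Figure D5:**
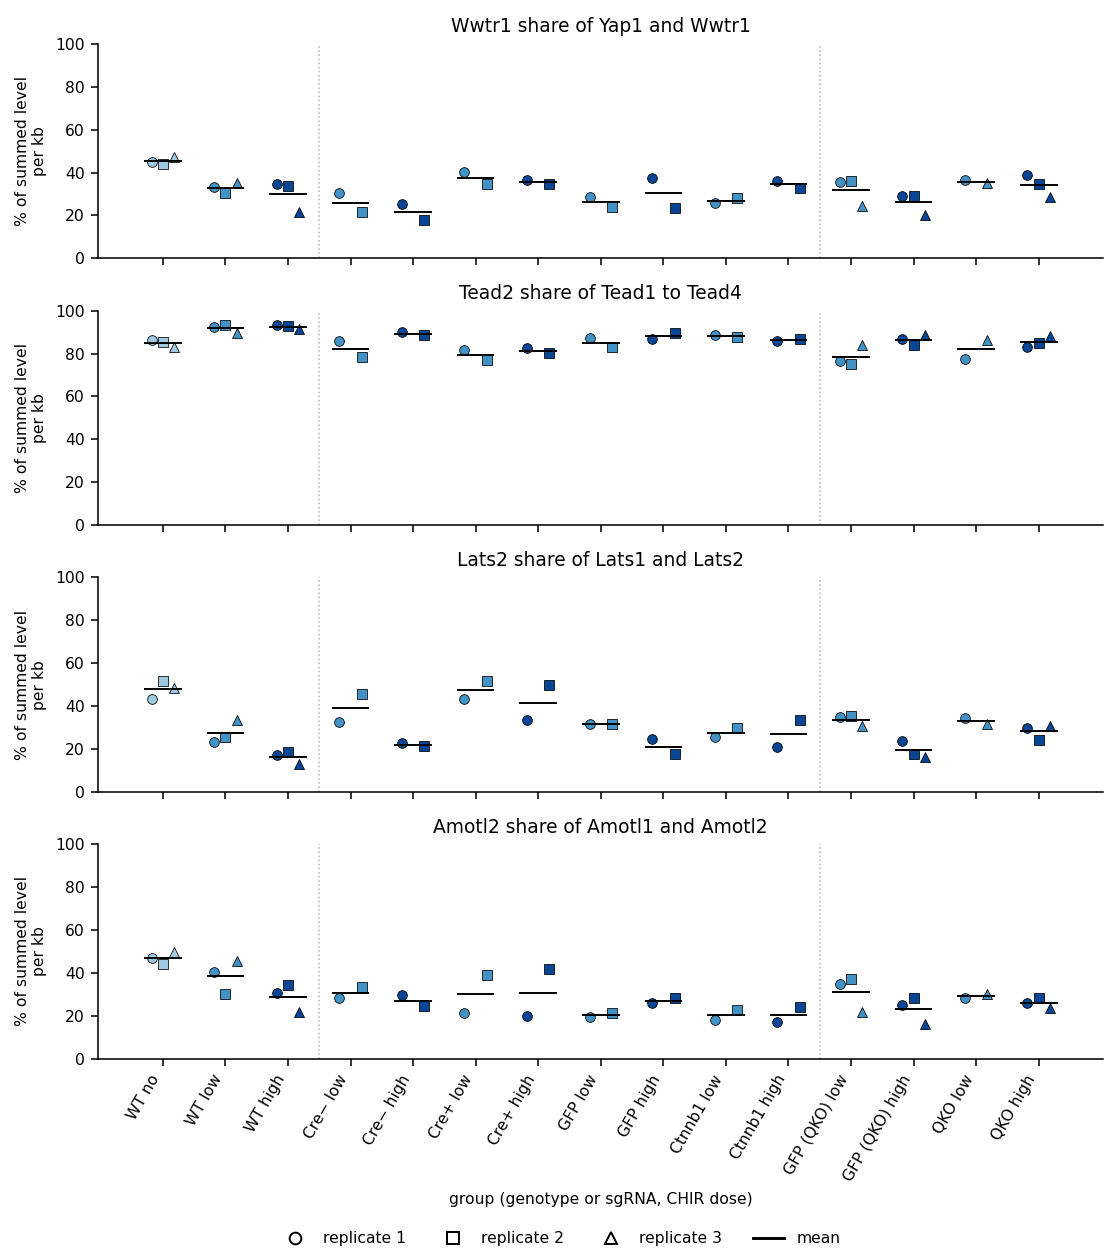
Share (y axis, percent of the summed normalized counts per kb) of 1 member of each paralog group in each library, by group (x axis), with dotted lines between the 3 sets; symbols mark the replicate number and bars the mean. The *Lats2* share is 43.5% to 51.9% in wild-type NPCs without CHIR and 12.8% to 18.4% in high CHIR, and *Tead2* is at or above 74.96% in every library.

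The wider pathway was described with a list of 32 upstream Hippo genes and regulators, of which 30 were tested in the wild-type set and 29 in the others, and a list of 20 Yap/Taz targets, of which 17 to 19 were tested. *Ptpn14* and *Fjx1* are on both lists. Between high and low CHIR in wild-type cells, 2 upstream genes rose and 2 fell (median log2 0.12) and 1 target rose and 1 fell (median 0.43), against a median of 0.01 over all genes, of which 10.6% were called. In the controls of the β-catenin set, 5 upstream genes rose and 5 fell, and 5 targets rose and 3 fell, where 16.5% of all genes were called. Removal of β-catenin in high CHIR raised 6 and lowered 2 upstream genes, and raised 6 and lowered 2 targets (medians 0.14 and 0.22, against −0.01 over all genes, of which 17.3% were called). In low CHIR, removal changed 0 genes of either list by limma, with 5 of each list at an unadjusted p under 0.05 and 0.620% of all genes called. By limma, QKO changed 0 genes of both lists in low CHIR (1 and 0 at an unadjusted p under 0.05) and 0 upstream genes (6 at an unadjusted p under 0.05) and 1 target in high CHIR, where 0.00630% and 2.56% of all genes were called. High CHIR in its GFP sgRNA controls raised 5 and lowered 3 upstream genes and raised 2 and lowered 2 targets, where 15.6% of all genes were called.

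Among the upstream genes, *Amot*, *Wwc2* and *Patj* were called between high and low CHIR in wild-type cells and the opposite way when β-catenin was removed in high CHIR. *Amot*, the founding angiomotin gene, was 1665, 1269 and 1594 without CHIR, 528, 442 and 1019 in low and 266, 304 and 95.3 in high CHIR. It fell by 1.64 ± 0.43 from low to high CHIR (adjusted p = 0.0341), which was called in 4 of 6 fits without 1 library (adjusted p up to 0.141). On removal in high CHIR it rose by 2.0 ± 0.17 on the log2 scale (adjusted p = 3.06e-06), from 145 and 223 to 744 and 817 with Cre and from 172 and 132 to 519 and 613 with Cas9. *Amot* did not rise in QKO in high CHIR, with 270, 235 and 234 against 344, 316 and 242 with GFP sgRNA, and was not called there by limma. *Wwc2*, which encodes a scaffold that promotes Lats activity, fell by 0.78 ± 0.20 from low to high CHIR in wild-type cells (adjusted p = 0.0316). It rose by 0.86 ± 0.26 on removal in high CHIR (adjusted p = 0.0395). *Patj*, encoding a polarity protein of tight junctions, went the other way, with 1.35 ± 0.23 (adjusted p = 0.00409) and −0.49 ± 0.13 (adjusted p = 0.0204). In high CHIR *Wwc2* was 276 and 786 in Cre-pos against 201 and 284 in Cre-neg cells, which overlapped. In the Cas9 pair it was 369 and 351 against 216 and 210, without overlap. Replicate 2 of Cre-pos, the higher library for *Wwc2*, was also the higher one for *Lats2*, *Ccn1* and *Ccn2*.

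Of the targets, *Axl*, encoding a receptor tyrosine kinase, fulfilled the same rule. It was 1512, 1624 and 1824 in low and 834, 540 and 601 in high CHIR (log2 −1.35 ± 0.24, adjusted p = 0.00554), and removal in high CHIR raised it by 1.58 ± 0.16 (adjusted p = 1.45e-05). It was also the target called in QKO in high CHIR, with 1384, 927 and 730 against 493, 267 and 252 (log2 1.60 ± 0.38, adjusted p = 0.0472), a call that edgeR did not make (adjusted p = 0.0570) and that was kept in 1 of 6 fits without 1 library. *Ccn1*, a matricellular gene widely used as a Yap readout and named here after its values were seen, was 2489 and 6070 in Cre-pos against 381 and 731 in Cre-neg cells and 1274 and 2008 against 531 and 431 in the Cas9 pair in high CHIR (log2 2.31 ± 0.32, adjusted p = 0.000228). With removal in low CHIR *Ccn1* was 2714 and 3878 in Cre-pos against 808 and 1730 in Cre-neg cells. The Cas9 pair there held 1813 and 1318 against 999 and 733, and no target was called in low CHIR. *Ccn2*, also named after its values were seen, varied more between libraries in high CHIR. It was 132 and 770 in Cre-pos against 14.7 and 57.1 in Cre-neg cells, and 135 and 292 against 111 and 62.2 in the Cas9 pair. In wild-type NPCs *Ccn1* was 5476, 4384 and 6986 without CHIR, 1721, 918 and 1640 in low and 3377, 1707 and 2157 in high CHIR, so it did not follow the doses in 1 direction.

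The genes whose group means followed *Lats2* most closely, by Pearson's r over the 15 groups with each set centered on its own mean and among 11712 genes, were *Wwc2* (r = 0.949), *Mcur1* (0.945) and *Ash1l* (0.943). For *Tead3* they were *2310033P09Rik* (0.968), *Ctdsp1* (0.957) and *Sobp* (0.953). Between the members, *Lats2* and *Tead3* had r = 0.777, *Lats2* and *Wwtr1* 0.780, and *Lats2* and *Tead2* −0.784. These values describe 15 points that share libraries, doses and size factors.

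By the GENCODE vM21 annotation of GRCm38, *Lats2* lies at chr14:57689662-57758388 on the minus strand, and 42.39% of its exonic bases overlap *Gm49361*, a gene on the same strand that is not listed in the 3 tables. The library kit does not mark strand. *Tead3* lies at chr17:28331671-28350817 and *Wwtr1* at chr3:57455649-57575910, both on the minus strand and without exonic overlap, whereas *Tead2* (chr7:45215753-45233644, plus strand) shares 13 exonic bases with *Cd37* and *Yap1* (chr9:7931999-8004596, minus strand) 116 with *Gm20416*.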

How the data were processed

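Cultured NPCs were sequenced after SMARTer cDNA synthesis. According to the study's methods, reads were aligned with STAR to GRCm38 and GRCh38 combined and unambiguous reads counted per Ensembl gene with featureCounts. The signal in the 3 deposited tables is a normalized count per gene, which the authors made with DESeq2 size factors. All values (100%) were whole multiples of 1 read per library (tolerance 0.05 read), also in 3 libraries where 1 read was worth close to 1, so whole reads were recovered for count tests. The 8 deposited comparison tables hold the authors' fold changes and p-values and were not used, nor were the 50 columns of single libraries in them.

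Fits used limma 3.58.1 in R 4.3.3 (trend, log2(normalized count + 1), all libraries of a table, genes with a mean of at least 10). A gene was called at a Benjamini-Hochberg adjusted p under 0.05 over all genes, with no threshold on fold. Fold changes on this scale understate changes of low genes. Alternatives were a pseudocount of 0.5, no filter, the compared libraries alone, TMM rescaling, edgeR 4.0.16, DESeq2 1.42.0, a replicate block and leaving out each library. Steps were tested on simulated data. In the QKO set all same-numbered libraries deviated together (r = 0.214 to 0.637), so the numbers were read as pairs there. The main fits used no pairs in any set, so QKO calls by limma, edgeR and DESeq2 ignore this pairing unless the block is named. All 10 members are covered in every comparison. List genes are named if called between high and low CHIR in the wild-type set and oppositely on removal in high CHIR, at most 4 per list and direction, and likeness is given for the members called in a comparison other than high against no CHIR. Members, lists and rules were chosen with earlier results of these data known.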

Additional observations from a re-analysis of the deposited data

Results flagged for a closer look

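No member met a rule for a closer look. Of the 2 lists of pathway genes, 4 genes responded to high CHIR differently after β-catenin removal than in the controls by the limma test of that difference, averaged over Cre and Cas9. They were 2 of the 29 upstream genes and 2 of the 18 targets tested, where 2.44% of all genes were called. *Amot* differed by 1.66 ± 0.24 on the log2 scale (adjusted p = 0.00155), *Axl* by 1.27 ± 0.22 (adjusted p = 0.00632), *Dock5* by 1.33 ± 0.28 (adjusted p = 0.0194) and *Taok3* by 0.94 ± 0.22 (adjusted p = 0.0450). *Dock5* and *Taok3* were chosen after their values were seen. In high CHIR *Dock5*, encoding a guanine nucleotide exchange factor, was 169 and 265 in Cre-pos against 82.8 and 83.0 in Cre-neg cells, and 122 and 164 with *Ctnnb1* sgRNAs against 51.0 and 45.0 with GFP sgRNA. *Taok3*, encoding a kinase upstream of Mst, was 478 and 387 against 164 and 142, and 483 and 493 against 268 and 184. In wild-type NPCs both genes overlapped between low and high CHIR. *Dock5* was 214, 126 and 256 in low and 80.7, 48.9 and 241 in high CHIR. *Taok3* was 373, 339 and 384 in low and 217, 147 and 437 in high CHIR. Leaving out 1 of 16 libraries kept the call of *Amot* and *Axl* in all 16 fits, of *Dock5* in 11 and of *Taok3* in 3, where its adjusted p ran from 0.0248 to 0.131.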

How the results depend on the processing

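Of 230 member values in 23 comparisons, 12 were called, and no alternative reversed a called value or called the opposite direction. The count of members called between high and low CHIR in wild-type cells was 1, and 2 with TMM rescaling or DESeq2 and 1 to 2 without 1 library. For no against low CHIR it was 1, 4 with DESeq2, 3 with the compared libraries alone and 0 to 1 without 1 library. For removal in high CHIR it was 1, 0 without a filter or with the compared libraries alone, 2 with the replicate block and 0 to 2 without 1 library. In the β-catenin controls it was 2, 3 with the replicate block or DESeq2 (adding *Tead2*) and 1 to 3 without 1 library. For QKO in high CHIR it was 0, and 1 with the replicate block. In the GFP sgRNA controls of the QKO set it was 0, 1 with the replicate block, 2 with DESeq2 and 0 to 3 without 1 library. The cause of these differences was not tested.

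The block added *Wwtr1* for removal in high CHIR (adjusted p = 0.0204) and *Tead2* in the β-catenin controls (adjusted p = 0.0324), and left the wild-type calls of the first 2 comparisons as they were. In the wild-type set same-numbered libraries of high and low CHIR correlated by 0.039 to 0.147. Those of high and no CHIR correlated by 0.072 to 0.272, and those of low and no CHIR by −0.016 to 0.177. In the β-catenin set same-numbered libraries correlated by 0.116 to 0.518 within each method. There each group has only 2 numbers, and the labels tie them to no shared animal, batch or day. In both sets the numbers were therefore not taken as pairs. The block moved the all-gene count from 104 to 576 for removal in low CHIR and from 407 to 1266 for QKO in high CHIR. Low counts limit *Tead4* most, which had 8.96 normalized counts in its lowest library.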
